A study of Mus musculus with 6 samples.

Results

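Open chromatin regions that were called in the Foxr2 p53LOF library and in neither Foxr2 alone library, called here p53LOF-only peaks, were chosen by position: every ATAC-seq peak of Foxr2 p53LOF replicate 1 on the autosomes that shared no base with a peak of Foxr2 alone replicate 1 or replicate 2. They numbered 27523 of the 110742 autosomal peaks of that library (24.9%), and the 3 libraries listed 340587 autosomal peaks in all. A further 27327 peaks of Foxr2 p53LOF overlapped a peak of 1 Foxr2 alone library (24.7%), and 55892 overlapped peaks of both (50.5%). The absence of an overlapping peak in Foxr2 alone therefore defines the set and is not a result.

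The samples were brain, labelled as brain tumor, from C57BL/6J mice in which progenitors of the ganglionic eminences had been electroporated in utero, so that tumor cells and cells of the host brain were read together. All 3 libraries carried Foxr2 overexpression from a piggyBac vector under the ubiquitous CAG promoter, with Akaluc and GFP vectors, and Foxr2 p53LOF also carried Cas9 with a guide against Trp53. The 10x Multiome assay reads RNA and accessible chromatin from the same nucleus, and the labels give 1 library of Foxr2 p53LOF and 2 of Foxr2 alone. Counts were analysed for replicate 1 of each genotype, so for 1 library of each, and every difference between genotypes is therefore one between these libraries, with no replicate error, and genotype, animal, dissected region and cell makeup cannot be told apart. Ages were not given in the sources used here.

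A peak in ATAC-seq marks DNA that nucleosomes leave accessible, such as a promoter or an enhancer. Promoter peaks are open in most cell types, whereas enhancers far from gene starts are often open in 1 lineage and hold the binding sequences of that lineage's transcription factors. AP-1 dimers of Fos and Jun proteins bind enhancers in response to growth factors and stress, PU.1 binds those of myeloid cells, and SOX proteins those of glia.

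The barcodes of Foxr2 p53LOF replicate 1 held 102529894 ATAC counts and 96929539 UMIs, and those of Foxr2 alone replicate 1 held 118436178 and 59719847. Filtering left 8359 and 8316 nuclei with median ATAC counts of 6859 and 8983.5. Pairs of libraries shared 19 to 140 barcode sequences of 1650 to 10379 barcodes per library. The 2464 tumor glia of Foxr2 p53LOF were the glia-like clusters in which the contig of the Akaluc-GFP vector carried an ATAC count at least 3 times as often as in immune nuclei, and 28.3% of them had such a count, against 0.861% of 1626 host glia, 1.29% of 1711 immune nuclei and 0.666% of 2253 neurons. Marker genes named the clusters, so the levels that follow describe the classes and do not check them. All 8 oligodendrocyte markers were highest in host glia, all 9 immune markers in immune nuclei and all 8 neuron markers in neurons. Tumor glia were highest for all 8 astrocyte markers, 4 of 8 markers of committed oligodendrocyte precursors (COP) and 4 of 8 of oligodendrocyte precursors. The other COP markers, Neu4, Bcas1, Gpr17 and Sox10, were highest in host glia, as were the precursor markers Cspg4, Olig1 and Olig2. Tumor glia made up 29.5% of the Foxr2 p53LOF nuclei, and 5 nuclei (0.0601%) of Foxr2 alone replicate 1 fell in the same clusters. The vector share was computed only for nuclei of Foxr2 p53LOF, so it does not show which nuclei of Foxr2 alone carried a vector. A cluster of 467 neurons, all of Foxr2 alone replicate 1, had PiggybacTransposase, a vector gene, first among its leading genes. This gene had 308 UMIs over all kept nuclei of that library. Trp53 RNA was 33.6 counts per 1000000 UMIs (CPM) in Foxr2 p53LOF against 12.9 CPM in Foxr2 alone; the guide edits the gene and need not lower its RNA, so this level does not check the label.

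The regions below carry the results that follow. They are the 300 bp centres of the p53LOF-only peaks led by immune nuclei, neurons and host glia that had the most counts there and touched no UTR with their centre, of the Hmga2 start peak, of the 2 tumor glia peaks with the most counts that hold an AP-1 match, and of the first immune peak with a PU.1 match. They were read from GRCm38.p6, the mm10 build of the files, on the plus strand, 5′ to 3′. Capitals mark matches to AP-1 (TGANTCA), SOX (ACAATGG), PU.1 (GAGGAAGT) and the E-box (CAGCTG) on either strand.
Hmga2 upstream, chr10:120476783-120477082: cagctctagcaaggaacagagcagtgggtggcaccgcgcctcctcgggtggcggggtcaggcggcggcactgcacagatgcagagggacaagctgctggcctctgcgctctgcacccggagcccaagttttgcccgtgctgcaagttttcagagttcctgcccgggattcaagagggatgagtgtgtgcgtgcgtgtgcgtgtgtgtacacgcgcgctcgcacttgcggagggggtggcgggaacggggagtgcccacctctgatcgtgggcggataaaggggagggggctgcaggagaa
Aldh1l1 intron, chr6:90541461-90541760: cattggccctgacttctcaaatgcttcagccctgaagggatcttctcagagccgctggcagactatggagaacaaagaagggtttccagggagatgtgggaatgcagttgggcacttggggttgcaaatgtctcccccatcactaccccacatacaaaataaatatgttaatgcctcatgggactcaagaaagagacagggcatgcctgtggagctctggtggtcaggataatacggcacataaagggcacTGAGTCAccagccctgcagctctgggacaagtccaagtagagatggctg
Bloc1s1 intron, chr10:128921782-128922081: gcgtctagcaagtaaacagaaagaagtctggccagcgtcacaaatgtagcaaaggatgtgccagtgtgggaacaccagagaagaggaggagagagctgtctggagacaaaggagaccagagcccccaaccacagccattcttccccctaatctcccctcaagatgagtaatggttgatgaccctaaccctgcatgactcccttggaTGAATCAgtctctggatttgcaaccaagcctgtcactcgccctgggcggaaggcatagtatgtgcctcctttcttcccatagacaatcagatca
Slc11a1 exon, chr1:74381591-74381890: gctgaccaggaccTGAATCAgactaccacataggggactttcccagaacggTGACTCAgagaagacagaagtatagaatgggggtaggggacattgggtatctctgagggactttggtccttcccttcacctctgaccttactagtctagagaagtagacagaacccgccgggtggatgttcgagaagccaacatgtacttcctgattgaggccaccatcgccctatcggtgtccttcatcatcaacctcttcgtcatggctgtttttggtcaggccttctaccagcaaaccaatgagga
Slc43a2 exon, chr11:75533124-75533423: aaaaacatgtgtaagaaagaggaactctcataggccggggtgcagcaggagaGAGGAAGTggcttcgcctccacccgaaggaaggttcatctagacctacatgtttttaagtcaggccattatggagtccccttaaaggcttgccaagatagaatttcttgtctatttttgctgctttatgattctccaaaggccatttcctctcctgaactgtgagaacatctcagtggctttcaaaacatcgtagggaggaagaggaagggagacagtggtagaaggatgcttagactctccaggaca
Near Bc1, chr7:144911361-144911660: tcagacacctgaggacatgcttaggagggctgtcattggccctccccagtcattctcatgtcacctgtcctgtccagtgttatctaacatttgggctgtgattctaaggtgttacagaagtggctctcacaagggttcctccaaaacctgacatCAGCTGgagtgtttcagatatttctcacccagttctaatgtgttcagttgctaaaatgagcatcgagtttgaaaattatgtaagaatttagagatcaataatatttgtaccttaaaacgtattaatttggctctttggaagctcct
Igsf8 intron, chr1:172314997-172315296: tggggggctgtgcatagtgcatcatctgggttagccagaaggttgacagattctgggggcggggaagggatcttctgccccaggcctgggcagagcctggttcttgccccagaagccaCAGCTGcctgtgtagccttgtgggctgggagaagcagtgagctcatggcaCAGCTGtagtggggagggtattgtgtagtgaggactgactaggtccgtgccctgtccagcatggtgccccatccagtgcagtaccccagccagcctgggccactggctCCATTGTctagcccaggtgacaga

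The Hmga2 region, at a GC content of 65.0%, held none of these 4 motifs, while the Aldh1l1 and Bloc1s1 regions each held 1 AP-1 match. The Slc11a1 region held a pair of AP-1 matches, the Slc43a2 region 1 PU.1 match, the Bc1 region 1 E-box and the Igsf8 region 2 E-boxes and 1 SOX match. A match is a run of letters and does not show that a factor was bound.

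Nuclei of the tumor glia placed the largest part of their ATAC counts in p53LOF-only peaks, followed by neurons, immune nuclei and host glia. Of the counts of tumor glia in autosomal peaks, 11.63% lay in p53LOF-only peaks (95% exact binomial interval [11.61, 11.65]), against 7.91% [7.90, 7.93] of neurons, 6.20% [6.18, 6.22] of immune nuclei and 4.47% [4.45, 4.49] of host glia. The intervals were computed on fragments, taken as counts divided by 2, and cover counting error only. The medians over nuclei had the same order: the median share was 11.5% in tumor glia (quartiles 9.64% and 13.4%), 7.83% in neurons (6.98% and 8.70%), 6.01% in immune nuclei (4.96% and 7.12%) and 4.22% in host glia (3.47% and 4.99%). Tumor glia and host glia did not overlap between their quartiles, and the upper quartile of neurons lay below the lower quartile of tumor glia. The quartile ranges of neurons and immune nuclei overlapped, as did those of immune nuclei and host glia. The tumor glia were also the deepest class, with a median of 10144.5 ATAC counts per nucleus against 8780 in neurons, 5476 in immune nuclei and 5372 in host glia, and gave 28760495 of the 70288556 autosomal peak counts of the kept nuclei. The peaks were called on this library and chosen against libraries of which replicate 1 held 5 nuclei in the tumor glia clusters. The choice itself therefore favors tumor glia. Nuclei are not replicates, and these shares are a description.

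**Figure D1:**
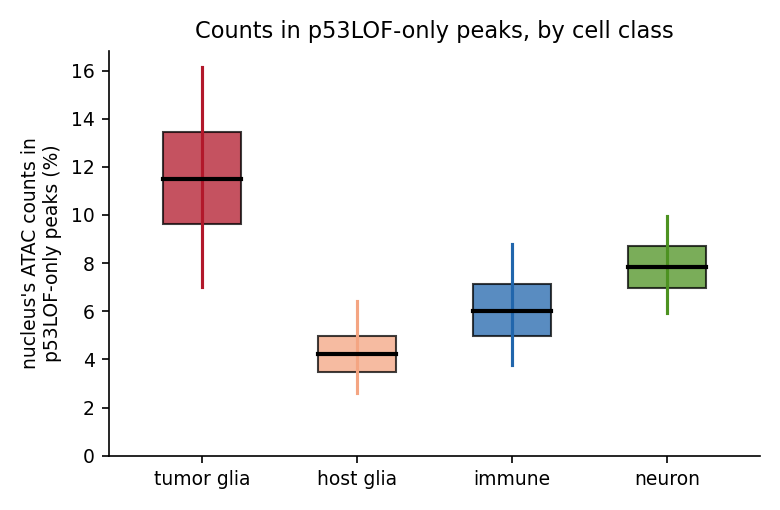
Percent of each nucleus's autosomal ATAC counts that lay in p53LOF-only peaks (y axis) in the 4 cell classes of Foxr2 p53LOF replicate 1; the line in a box is the median, the box spans the quartiles and the thin line the 5th to the 95th percentile of nuclei. The tumor glia have a median of 11.5% and their box lies above those of neurons, immune nuclei and host glia.

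Both tumor glia clusters had nearly the same share. The COP-like cluster (1286 nuclei, led by Gdnf, Bmp4 and Enpp6) had 11.60% [11.58, 11.62] of its counts in p53LOF-only peaks and the astrocyte-like cluster (1178 nuclei, led by Dbx2, Egfr and Rfx4) 11.66% [11.64, 11.69]. Tumor glia without a vector count had 11.52% [11.50, 11.54]. Among the immune clusters, the one led by S100a8, Mmp12 and Msr1 (1083 nuclei) had 6.86%, above the 5.12% of the cluster led by Fcrls and Siglech (623 nuclei), genes of microglia. Of the 2478 p53LOF-only peaks led by immune nuclei, 50.4% were at least 2-fold higher in the former than in the other immune clusters, against 11.3% of the shared immune peaks, and 2.30% and 6.63% were so in the latter. The neuron clusters ranged from 7.61% (250 nuclei, led by Sim1 and Nkx2-1) to 8.24% (173 nuclei, led by Slc6a3 and Th, genes of dopamine neurons).

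A class led a peak when its ATAC CPM, the counts of the peak per 1000000 autosomal peak counts of the class, was at least 2-fold above that of each other class, with 50 or more counts over the 4 classes. Of the 27523 p53LOF-only peaks, 146 had fewer counts, and of the other 27377, tumor glia led 8633 (31.5%), against 13.6% of all tested peaks of the library. Neurons led 3110 (11.4%, against 13.5% of all tested peaks), immune nuclei 2478 (9.05%, against 11.5%) and host glia 389 (1.42%, against 5.97%), and the remaining 46.6% had no leading class. Together with the 146 peaks under the limit, these are the 12913 counted below as led by no class. Seen the other way, 57.4% of the 15039 peaks led by tumor glia were p53LOF-only, against 20.8% of those led by neurons, 19.4% of those led by immune nuclei and 5.90% of those led by host glia. Of the peaks shared with both Foxr2 alone libraries, tumor glia led 4.65%. These counts use the same library as the choice of the peaks and are a description.

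For immune, neuron and host glia peaks the count depended on the Foxr2 alone libraries used. With replicate 2 as the only Foxr2 alone library, 7171 peaks led by neurons had no counterpart (48.1%), and with replicate 1 as the only one, 3467 (23.2%). For peaks led by immune nuclei the same counts were 2846 (22.3%) against replicate 2 and 7535 (59.1%) against replicate 1. Peaks led by host glia without a counterpart numbered 1002 (15.2%) and 1116 (16.9%), and those led by tumor glia 10760 (71.5%) and 10315 (68.6%). The 2 Foxr2 alone libraries differed in size: replicate 1 had 10096 barcodes and 132707 autosomal peaks, and replicate 2 had 1650 and 97138. Immune nuclei were 5.10% of Foxr2 alone replicate 1, and the cell makeup of replicate 2 was not analysed here. What part size or cell makeup had in these counts was not tested.

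The p53LOF-only peaks were weak peaks. Their median was 181 counts over the kept nuclei (quartiles 135 and 259), against 512 for peaks shared with both Foxr2 alone libraries and 305 for all peaks. In the decile of peaks with the fewest counts 62.6% were p53LOF-only, and in the decile with the most 0.226%. Within each of the 10 deciles the share was higher among peaks led by tumor glia than among all peaks: 84.5% in the lowest, 57.9% in the fifth and 12.1% in the ninth. Width differed little, with a median of 869 bp against 877 bp for all peaks. A peak below the caller's limit in Foxr2 alone counts as absent, and the Foxr2 alone matrix counts its own peaks, so its accessibility at these positions was not measured here.

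**Figure D2:**
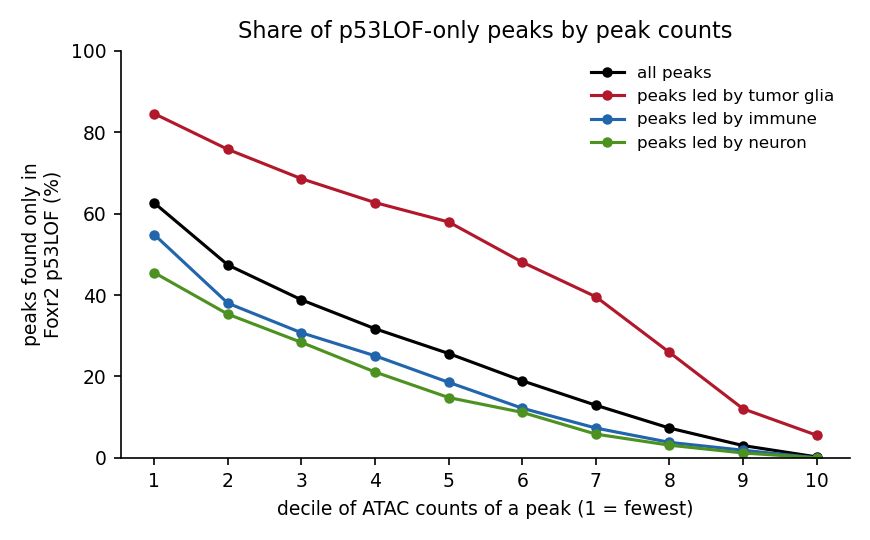
Percent of peaks that were p53LOF-only (y axis) in 10 equal bins of the peak's ATAC counts over kept nuclei (x axis), for all autosomal peaks of Foxr2 p53LOF and for those led by tumor glia, immune nuclei or neurons. The share falls from 62.6% to 0.226% over all peaks, and the curve of the tumor glia lies above that of all peaks in each bin.

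The gap from a p53LOF-only peak to the nearest Foxr2 alone peak had a median of 3465 bp. Gaps at other positions of the genome were not measured, so this is not read as near or far. Of the p53LOF-only peaks 3425 (12.4%) lay within 500 bp of a Foxr2 alone peak and 669 (2.43%) over 50000 bp away. Tumor glia led 22.3% of the former and 52.6% of the latter. At the edge of the rule, a peak in an exon of Rarg (chr15:102245833-102246600, 1106 counts) and one in an intron of Ehd1 (chr19:6279048-6279741, 533 counts) abutted a Foxr2 alone peak with a gap of 0 bp and were inside, whereas chr9:37037147-37038047 (283 counts) and chr5:124950392-124951093 (217 counts) overlapped one by 1 base and were outside.

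Gene starts were rarer among the p53LOF-only peaks than among all peaks, but they were also rare among peaks shared with 1 Foxr2 alone library. A start of an annotated gene lay inside 2.37% of them and within 1000 bp of 4.87%, against 12.2% and 15.8% of all peaks and 21.2% and 25.6% of those shared with both Foxr2 alone libraries. Peaks shared with 1 Foxr2 alone library were close to the p53LOF-only peaks, at 3.604% and 6.63%. For p53LOF-only peaks the median distance to the nearest start was 27279 bp. It was 23399 bp for those shared with 1 library and 18276 bp for all peaks. A start lay within 100000 bp of 84.3% of the p53LOF-only peaks. Of the p53LOF-only peaks 44.8% were intronic, 39.4% intergenic and 15.7% touched an exon. Those led by tumor glia were more often intergenic (48.8%), those led by neurons lay farthest from starts (median 39579 bp), and those led by immune nuclei nearest (median 17924.5 bp). Counting the starts of all transcripts instead of 1 per gene raised the share within 1000 bp to 9.17%, against 21.8% of all peaks.

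The AP-1 motif had the widest difference in percentage points between p53LOF-only and other peaks among the 13 motifs searched. TGANTCA occurred in the central 300 bp of 34.2% of them, against 16.6% of the other peaks of the library and 21.0% of all peaks. It was found in 48.5% of those led by tumor glia, 31.5% of those led by no class, 26.7% of those led by immune nuclei, 15.2% of those led by host glia and 13.7% of those led by neurons. The shared peaks led by tumor glia held it nearly as often (41.7%). Over the first 9 deciles of counts its share in p53LOF-only peaks led by tumor glia lay between 46.8% and 55.0%, and the tenth held 3 such peaks, none with a match. With TGACTCA alone, the form with a central C or G, the shares were 41.1% of the p53LOF-only peaks led by tumor glia and 16.7% of all peaks. The matches were densest next to the centre: 6.03% of the p53LOF-only peaks led by tumor glia held one in the bin at 20 bp from it and 5.87% in the centre bin, against 1.91% and 1.80% in the outermost bins.

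**Figure D3:**
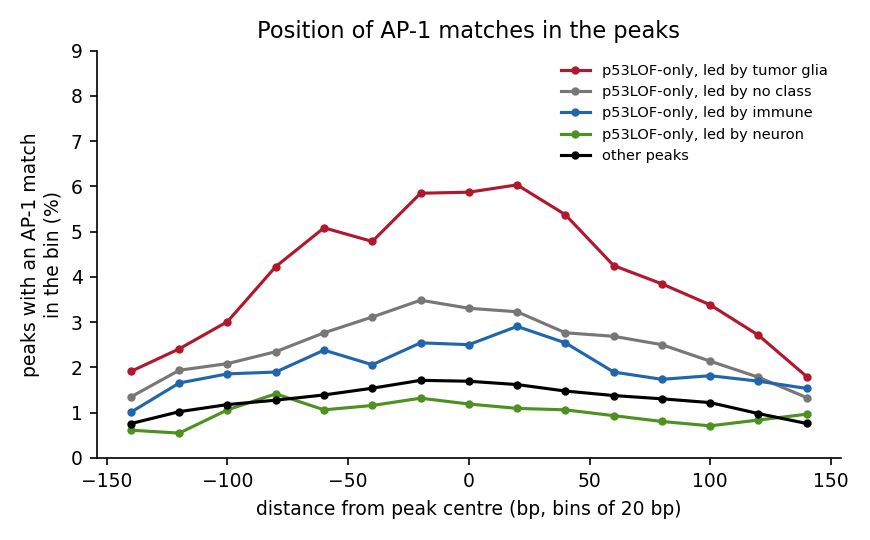
Percent of peaks with an AP-1 match (TGANTCA) in each 20 bp bin (y axis) by distance from the peak centre (x axis), for p53LOF-only peaks by leading class and for all other peaks of Foxr2 p53LOF. The curve of the tumor glia has its highest value, 6.03%, next to the centre, and that of the other peaks stays at 1.71% or below.

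Other motifs followed the leading class. GAGGAAGT, the PU.1 sequence of myeloid enhancers, occurred in 12.2% of the p53LOF-only peaks led by immune nuclei and in 1.71% of those led by tumor glia (3.53% of all peaks), and GAAANNGAA, the sequence of interferon regulatory factors, in 17.1% and 12.6% (10.2% of all peaks). The SOX sequence ACAATGG occurred in 15.4% of those led by host glia and 7.98% of those led by tumor glia (5.33% of all peaks), and TTGCCATGG, bound by RFX factors, in 2.86% of those led by neurons (1.18% of all peaks). The other peaks of the library led by the same class held them too: 14.9% for PU.1 and 15.0% for interferon regulatory factors in immune peaks, 14.5% for SOX in host glia peaks and 3.03% for RFX in neuron peaks. The ETS sequence CCGGAAG was found in 2.07% of the p53LOF-only peaks and in a similar 2.29% of those shared with 1 Foxr2 alone library. It was found in 4.06% of all peaks and 5.91% of those shared with both Foxr2 alone libraries. By class it was found in 2.20% of p53LOF-only and 2.36% of other peaks led by tumor glia, 2.12% and 2.13% of those led by neurons, 1.82% and 3.37% of those led by immune nuclei, and 2.05% and 6.38% of those led by no class. CCACNAGG, a core of the CTCF site, was found in 5.23%, against 7.94% of all peaks. The remaining motifs had these shares in p53LOF-only and in all peaks: NFI TTGGCA 22.4% and 19.4%, TEAD GGAATG 17.8% and 15.8%, E-box CAGCTG 25.5% and 25.3%, FOX TGTTTAC 4.49% and 3.99%, STAT TTCCNGGAA 2.06% and 1.495%, and MEF2 CTATTTATA 0.367% and 0.426%. PU.1 and ETS matches can overlap, and the median GC content was 48.3% in p53LOF-only and 50.3% in all peaks.

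Of 13 genes of AP-1 subunits and related factors, looked up after the motif counts were seen, RNA was highest in tumor glia for 5 (Fos, Fosb, Fosl1, Fosl2 and Jun), in immune nuclei for 7 and in host glia for 1. Fos had 85.7 CPM (95% exact Poisson interval 82.0 to 89.6) in tumor glia, 19.02 in host glia, 26.0 in immune nuclei and 10.9 in neurons. Fosl1 had 11.0, 2.26, 1.74 and 0.874 CPM and Fosl2 33.6, 6.34, 18.04 and 2.38 CPM in the same order. Jun was also highest in tumor glia at 111 CPM, whereas Junb (71.2 CPM), Atf3 (42.6 CPM), Batf (19.2 CPM), Batf3 (15.7 CPM), Nfe2l2 (254 CPM), Bach1 (160 CPM) and Bach2 (377 CPM) were highest in immune nuclei and Jund in host glia (42.3 CPM). Bach2 was close between the first 2 classes, with 359 CPM in tumor glia. In glia-like nuclei as a whole Fos was 74.9 CPM in Foxr2 p53LOF against 5.44 CPM in Foxr2 alone, and Jund 38.4 and 146 CPM.

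Of the 5 p53LOF-only peaks with the most counts among those led by tumor glia, 4 are described here. The second (chr14:122474791-122475596) covered the start of Zic2, a zinc finger factor of the developing forebrain, with 42.4 ATAC CPM in tumor glia and 11.1 in neurons. The fourth lay 8716 bp from the start of Aldh1l1, a folate enzyme of astrocytes (38.0 ATAC CPM against at most 5.46 in another class), and the fifth covered the start of Sall3, a developmental zinc finger factor (37.1 ATAC CPM, 14.6 in immune nuclei).

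The third, at chr10:120476491-120477374, lay 22 bp upstream of the start of Hmga2 and was the most selective of these 4, at 13.9-fold above the next class. Hmga2 encodes an architectural chromatin protein of embryonic tissue. The peak had 1134 counts in tumor glia, 24 in host glia, 31 in immune nuclei and 46 in neurons, 39.4 against at most 2.79 ATAC CPM, and the nearest Foxr2 alone peak was 44474 bp away. Of the 8 peaks nearest to Hmga2, 7 were p53LOF-only, and tumor glia led all 7. Of these, 5 more lay 50222 to 104806 bp upstream and 1 lay 2897 bp downstream of the start, with 81 to 449 counts. Hmga2 RNA was 1073 CPM in tumor glia, 75.3 in immune nuclei, 24.0 in host glia and 6.83 in neurons. GFP RNA from the vector, which 1.29% or fewer of the nuclei of the other classes carried by its ATAC count, was 640 CPM in tumor glia, 217 in immune nuclei, 190 in host glia and 76.3 in neurons, and how much RNA of tumor glia was read in other nuclei was not tested. In glia-like nuclei Hmga2 RNA was 903 CPM in Foxr2 p53LOF (24627 UMIs) against 0.510 CPM in Foxr2 alone (3 UMIs), a log2 ratio of 10.79 (95% counting interval 9.24 to 13.07).

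Among the p53LOF-only peaks led by immune nuclei, the peak with the most counts there lay in Runx3 (chr4:135152116-135152949, 49.0 ATAC CPM in immune nuclei and 8.10 in tumor glia), a runt-domain factor of lymphoid and myeloid cells. A peak in an exon of Slc11a1, a metal transporter of phagosomes, came next (43.1 and 4.94 ATAC CPM). Peaks in Efhd2 (42.1 ATAC CPM), 6847 bp upstream of Tm4sf5 (39.5) and in an intron of Fli1, an ETS factor of blood cells (38.6), followed. The Tm4sf5 peak was 21.3-fold above the next class, and Tm4sf5 RNA was 2.22 CPM in immune nuclei. Fli1 RNA was 425 CPM in immune nuclei of Foxr2 p53LOF against 616 CPM in those of Foxr2 alone.

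Among the p53LOF-only peaks led by neurons, the peak with the most counts there lay 2526 bp from Bc1, which encodes a neuronal noncoding RNA (32.5 ATAC CPM against at most 2.09 in another class). Peaks in Cyth1 (28.9), in Mast1 (28.9), at the start of Dlgap3, a scaffold of excitatory synapses (27.9), and in A330023F24Rik (27.8) followed. Mast1 RNA was 84.4 CPM in neurons of Foxr2 p53LOF against 24.9 CPM in those of Foxr2 alone, while Dlgap3 RNA was 41.4 and 67.3 CPM. Among those led by host glia, a peak in Igsf8 came first (43.1 ATAC CPM, 18.3 in tumor glia). Peaks in Gm11638 (38.5), Larp6 (29.3), Serpina3n (28.7) and Gm10863 (25.5) came next. Larp6 RNA was 82.2 CPM in host glia and 10.2 in tumor glia, and in glia-like nuclei 21.9 CPM in Foxr2 p53LOF against 91.7 CPM in Foxr2 alone.

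The p53LOF-only peak with the most counts of all was not led by a class. It lay at chr17:39845532-39846413 beside Gm42418, an annotated ribosomal RNA locus, with 87472 counts, and held 0.782% of the tumor glia's counts in p53LOF-only peaks and 3.74% of those of the host glia. The other 9 of the 10 with the most counts had 1930 to 3631 counts, were led by no class, and 3 of them covered a start, those of Sp3os, Gm7008 and Irx2. The Irx2 peak, at a homeobox factor of brain patterning, was 10279 bp from a Foxr2 alone peak and had 46.5 ATAC CPM in tumor glia, 24.5 in neurons, 9.63 in host glia and 3.19 in immune nuclei. Irx2 RNA was 14.7 CPM in tumor glia and 13.9 CPM in neurons of Foxr2 p53LOF, and no UMI was found in glia-like or neuron nuclei of Foxr2 alone replicate 1.

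Several genes had many p53LOF-only peaks nearest to them. Gm34225, a long noncoding RNA, had 28 of its 41 peaks in the set, of which tumor glia led 20, with RNA of 0.263 CPM in tumor glia. Among protein-coding genes Pde4d, a cyclic AMP phosphodiesterase, had 22 of 42, Gria1, an AMPA glutamate receptor subunit, 20 of 33, Vav3, a guanine nucleotide exchange factor, 19 of 38, and Adgrl3, an adhesion receptor of synapses, 19 of 30. Tumor glia led 15 of the 20 at Gria1, 9 at Pde4d, 7 at Vav3 and 6 at Adgrl3. RNA of Vav3 was 1609 CPM in tumor glia against 50.9 in host glia, and in glia-like nuclei 1357 CPM in Foxr2 p53LOF against 71.4 CPM in Foxr2 alone, which is 4.25 on the log2 scale (counting interval 4.11 to 4.39). Gria1 RNA was 259 CPM in tumor glia but 656 CPM in neurons, and in neurons it was 1739 CPM in Foxr2 alone. In glia-like nuclei it was 219 CPM in Foxr2 p53LOF against 92.2 CPM in Foxr2 alone. Bmper, a BMP-binding protein, had 18 of 35 with RNA of 5.64 CPM in tumor glia. Tns3 had 17 of 64, 26.6% against 24.9% of all autosomal peaks of the library, and Nrxn3 17 of 47. The noncoding 1700060O08Rik had 23 of 32, 9130015G15Rik 17 of 32, Gm28750 16 of 37 and Gm15606 16 of 43. The ranking depended on how peaks were assigned: to the nearest gene whose symbol is not of the form Gm or Rik, Egln3 had 36 of 62, Tenm3 36 of 63, Trib2 30 of 49 and Sox4 29 of 53. Tumor glia then led 18 at Tns1, 17 at Cd83 and 16 each at Insc, Sall3 and Sox6os. They led 15 each at Bcl11b, Gria1, Hmga2 and Tenm3.

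By leading class, tumor glia led 11 p53LOF-only peaks nearest to Gm45025 and 10 each nearest to Pdlim5, a LIM protein of the cytoskeleton (374 CPM in tumor glia, 92.8 in host glia), and 4933413C19Rik. Immune nuclei led 7 at Dock5, an activator of Rac, 6 at Trps1, a GATA-type factor, 6 at Gm47713, and 5 each at Rin3, Cmip and Atp8b4. In immune nuclei Dock5 RNA was 134 CPM in Foxr2 p53LOF against 24.6 CPM in Foxr2 alone, Trps1 RNA 1048 and 151 CPM and Atp8b4 RNA 120 and 26.4 CPM. Cmip was closer, at 555 and 413 CPM, and Rin3, at 217 and 197 CPM, did not differ beyond counting error (log2 ratio 0.14, 95% counting interval -0.14 to 0.43). Neurons led 9 at Nrxn3, a presynaptic adhesion gene whose RNA was 3352 CPM in neurons of Foxr2 p53LOF against 3884 CPM in those of Foxr2 alone, 7 at Gm15606, Gm28750 and 4930589P08Rik and 6 at Rab3c and Kcnj6. Host glia led 4 at Daam2, a formin of oligodendrocytes (390 CPM in host glia, 60.2 in tumor glia), and 2 each at Magi1, Pkp4, Gm50441, Gm10097 and Gm26761.

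RNA was compared between the libraries for the genes nearest to the peaks, on log2(CPM + 1), with a gene counted as higher at 2-fold or more and 10 CPM or more in 1 library. In glia-like nuclei, of which 2464 in Foxr2 p53LOF and 5 in Foxr2 alone were tumor glia, 19.02% of the genes with no p53LOF-only peak led by tumor glia were higher in Foxr2 p53LOF, 31.6% with 1, 43.5% with 2, 56.4% with 3 or more (162 of 287) and 67.6% with 5 or more (46 of 68), against 22.5% of all genes tested. Lower genes became fewer along the same steps, from 22.2% to 5.88%. Shared peaks led by tumor glia gave steps of the same kind: 63.4% of 191 genes with 3 or more were higher, and 57.1% of the 42 of these that had no p53LOF-only peak led by tumor glia. Host glia also lay in different clusters: 1525 oligodendrocyte-like nuclei of Foxr2 p53LOF shared a cluster with 3 of Foxr2 alone, 3016 of Foxr2 alone one with 2 of Foxr2 p53LOF, and 425 astrocyte-like nuclei of Foxr2 alone one with 5. The glia-like comparisons therefore set different mixtures of glia beside each other, which cannot be told apart from the genotype.

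For the immune and neuron peaks the p53LOF-only and the shared peaks differed more. Of 73 genes with 3 or more p53LOF-only peaks led by immune nuclei, 36 (49.3%) were higher in the immune nuclei of Foxr2 p53LOF, against 21.3% of 761 genes with 3 or more shared immune peaks and 15.7% of all genes tested. Of 78 genes with 3 or more led by neurons, 27 (34.6%) were higher in the neurons of Foxr2 p53LOF and 13 (16.7%) lower, and with 5 or more 3 of 12 were higher and 3 lower, against 21.6% of 615 genes with 3 or more shared neuron peaks and 12.6% of all genes tested. Foxr2 alone replicate 1 held 568366 UMIs of immune nuclei, at which 3 UMIs are 5.28 CPM, so low immune genes are poorly measured there. Over all kept nuclei, 30.6% of 1583 genes with 3 or more p53LOF-only peaks were higher, against 13.7% of genes with none and 18.8% of all genes tested. The libraries shared almost no cluster of immune nuclei or neurons: 1083 and 623 of the 1711 immune nuclei of Foxr2 p53LOF lay in clusters with 9 and 0 nuclei of Foxr2 alone, and 415 immune nuclei of Foxr2 alone in one with 5 of Foxr2 p53LOF. Of the 2253 neurons of Foxr2 p53LOF, 1806, 250 and 173 lay in clusters with 25, 0 and 0 nuclei of Foxr2 alone. The neurons of Foxr2 alone included the 467 of the cluster led by PiggybacTransposase. Kinds of immune nuclei and neurons and genotype therefore cannot be told apart in these shares. Genes are not replicates, and these shares carry no test.

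**Figure D4:**
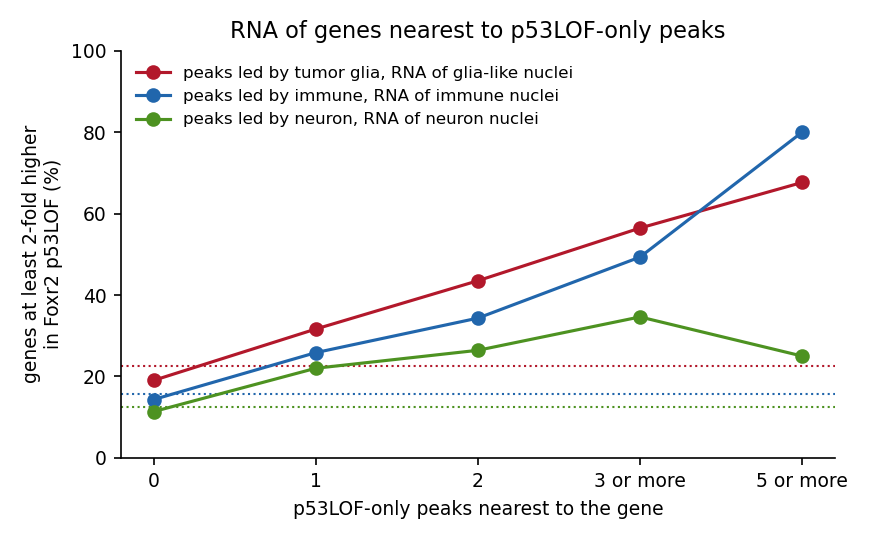
Percent of tested genes whose RNA was at least 2-fold higher in Foxr2 p53LOF than in Foxr2 alone replicate 1 (y axis), by how many p53LOF-only peaks of the class were nearest to the gene (x axis; 3 or more includes 5 or more); dotted lines give the percent over all tested genes of the same nuclei. The share climbs from 19.02% to 67.6% for tumor glia peaks in glia-like nuclei, and for neurons the last point rests on 12 genes.

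Within Foxr2 p53LOF, the class that led a peak often had the highest RNA of the nearest gene. This was so for 60.4% of the 1018 tested genes nearest to p53LOF-only peaks led by immune nuclei (31.0% of all genes with 10 CPM or more in a class were highest there), 51.3% of 187 for host glia (15.0% of all), 47.0% of 1013 for neurons (24.3% of all) and 40.2% of 2198 for tumor glia (29.6% of all). The shared peaks led by the same classes gave 62.5%, 43.2%, 47.9% and 42.2%. With 3 or more p53LOF-only peaks of the class the share was 77.0% of 74 genes for immune nuclei, 67.5% of 77 for neurons and 57.5% of 301 for tumor glia.

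The share of p53LOF-only peaks was read against the 24.9% of all autosomal peaks for each gene list. Counts led by a class were read against the p53LOF-only share of all peaks led by that class. That share was 57.4% for tumor glia, 20.8% for neurons and 19.4% for immune nuclei. Among the peaks nearest to growth and glial tumor genes, 69 of 251 were p53LOF-only (27.5%). Tumor glia led 66 of the 251, of which 31 were p53LOF-only, a lower share than among all peaks led by tumor glia. Lrig1, a brake on EGF receptor signalling, had 9 (5 led by tumor glia), Sox5, a factor of glial and neuronal precursors, 7 (6) and Egfr 3 of its 4 peaks (3). In glia-like nuclei Lrig1 RNA was 180 CPM in Foxr2 p53LOF against 18.2 CPM in Foxr2 alone, Sox5 525 and 125 CPM and Egfr 319 and 83.0 CPM. Nfia, a gliogenic factor, had 10 with 1358 and 1012 CPM. The others of this list with at least 3 were Nfib (5), Ptprz1 and Tnr and Pdgfa (4 each), and Sox2, Erbb4, Nfix and Zfp536 (3 each). Not all were higher in glia-like nuclei of Foxr2 p53LOF: Pdgfa, a growth factor for oligodendrocyte precursors, had 60.8 against 90.3 CPM. Zfp536, with 2 of its 3 led by tumor glia, had 333 CPM in tumor glia and 1366 CPM in host glia, on either side of the 811 CPM in glia-like nuclei of Foxr2 alone.

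Semaphorin and guidance genes had 36 of 117 (30.8%). Tumor glia led 38 of the 117, of which 20 were p53LOF-only, a lower share than among all peaks led by tumor glia. Sema3e and Sema3a, secreted guidance cues, had 7 of 9 and 6 of 16, and Nrp1, a semaphorin receptor, 13 of 40. All 6 at Sema3a were led by tumor glia and all 6 held an AP-1 match, at 6120 to 176786 bp from the start. In glia-like nuclei Sema3e RNA was 447 CPM in Foxr2 p53LOF against 22.8 CPM in Foxr2 alone and Sema3a RNA 162 and 7.82 CPM. In neurons both were lower in Foxr2 p53LOF, Sema3a at 12.5 against 58.9 CPM. The oncofetal list had 15 of 49 (30.6%). Tumor glia led 16 of the 49, of which 12 were p53LOF-only, 7 of them at Hmga2.

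ETS factors had 23 of 112 (20.5%), with Etv5 (4), Etv1, Etv4, Etv6, Elk3 and Erg (3 each). With peaks assigned to the nearest gene whose symbol is not of the form Gm or Rik, they had 70 of 238 (29.4%). This was above the share of all peaks. Tumor glia led 62 of the 238, of which 29 were p53LOF-only, a lower share than among all peaks led by tumor glia. The shares of all the other lists rose too with this assignment, so the rise was not particular to ETS factors. Oncofetal genes went from 30.6% to 39.2% and lymphoid genes from 27.4% to 37.2%. Interferon and antigen presentation genes went from 29.2% to 30.6% and p53 target genes from 16.3% to 20.8%. In the first assignment, all 3 at Erg, an ETS factor of endothelium, were led by tumor glia. Erg RNA was 14.2 CPM in tumor glia against at most 1.42 CPM in another of the 4 classes. These classes leave out a cluster of 75 nuclei led by genes of vessels, whose Erg RNA is not given here. p53 target genes had 17 of 104 (16.3%), with 3 each at Plk2 and Gadd45a. In glia-like nuclei Plk2 RNA was 21.4 CPM in Foxr2 p53LOF against 61.9 CPM in Foxr2 alone. Gadd45a, with 2 of its 3 led by immune nuclei, went the other way there. Its RNA was 8.07 CPM in immune nuclei of Foxr2 p53LOF and was not found in those of Foxr2 alone, where 3 UMIs are 5.28 CPM.

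Interferon and antigen presentation genes had 26 of 89 (29.2%). Immune nuclei led 26 of the 89 and tumor glia 12, of which 9 each were p53LOF-only. Ciita, the master activator of MHC class II genes, had 6 of 9, and immune nuclei led 5, one of them over its start (10.9 ATAC CPM in immune nuclei against at most 1.08 in another class). Ciita RNA was 231 CPM in immune nuclei of Foxr2 p53LOF (1460 UMIs) and had no UMI in those of Foxr2 alone, which makes it at least 43.8-fold higher against a floor of 3 UMIs. All 3 peaks nearest to Iigp1, an interferon-induced GTPase, were p53LOF-only, and the nearest Foxr2 alone peak was 78942 bp or more away. Iigp1 RNA was 851 CPM in tumor glia, 498 in host glia, 450 in immune nuclei and 40.7 in neurons, and 0.680 CPM (4 UMIs) in glia-like nuclei of Foxr2 alone. Irf1, an interferon-induced factor, had 4, with 170 and 3.401 CPM in glia-like nuclei.

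Myeloid genes had 30 of 146 (20.5%). Immune nuclei led 96 of the 146, of which 13 were p53LOF-only, a lower share than among all peaks led by immune nuclei. Itgax, the CD11c integrin of dendritic cells and activated microglia, had 3, all led by immune nuclei, with 126 CPM in immune nuclei of Foxr2 p53LOF and 1.76 CPM (1 UMI) in those of Foxr2 alone, a log2 ratio of 6.16 (95% counting interval 3.68 to 11.47). Runx1, a runt-domain factor of blood cells, had 6, with RNA of 525 CPM in immune nuclei of Foxr2 p53LOF against 776 CPM in those of Foxr2 alone, Irf8 4 and Arhgap15 3. The 3 nearest to C1qa, a complement gene of microglia, were led by neurons and lay 13551 to 17593 bp upstream, while C1qa RNA was 775 CPM in immune nuclei and 14.3 CPM in neurons. In immune nuclei of Foxr2 alone it was higher, at 3304 CPM. Lymphoid genes had 23 of 84 (27.4%), with Prf1 (5), Bcl11b and Pdcd1 (4 each), Gzmb and Tox (3 each). Tumor glia led 19 of the 84, of which 11 were p53LOF-only, a share close to that among all peaks led by tumor glia. Tumor glia led all 3 at Gzmb and 3 of the 5 at Prf1, cytotoxic granule genes whose RNA was 4.55 and 4.20 CPM in tumor glia and 9.81 and 1.11 CPM in immune nuclei. These classes leave out a cluster of 230 nuclei of Foxr2 p53LOF that had Gzmb and Prf1 among its 10 leading genes, beside Cd3g and Themis, genes of T cells. Of the 541 Gzmb UMIs in all kept nuclei 104 were in tumor glia and 62 in immune nuclei, and of the 250 Prf1 UMIs 96 and 7.

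Neuron subtype genes had 43 of 127 (33.9%). Neurons led 34 of the 127, of which 12 were p53LOF-only, and tumor glia 21, of which 11 were. Slc17a6, the vesicular glutamate transporter of subcortical neurons, had 4 of 6, all led by neurons and up to 30.2-fold above the next class, and its RNA was 253 CPM in neurons of Foxr2 p53LOF against 6.02 CPM in those of Foxr2 alone. Zfhx3 RNA was 716 and 89.4 CPM and Tcf7l2 RNA, from a Wnt pathway factor of thalamic neurons, 160 and 1.78 CPM, with 4 and 8 p53LOF-only peaks. Neurons led 2 of the 4 at Zfhx3 and none of the 8 at Tcf7l2, of which tumor glia led 3, and Tcf7l2 RNA was higher in tumor glia (263 CPM) than in neurons. Lmx1a, a factor of midbrain dopamine neurons, had 6, of which tumor glia led 3, one of them over its start with 12.8 ATAC CPM in tumor glia and 4.35 in neurons. Barhl1 had 4 and Ebf3 and Sim1 3 each. Forebrain interneuron genes had 17 of 65 (26.2%), with Npy (5) and Maf (3). Npy RNA was 4.01 CPM in neurons of Foxr2 p53LOF against 107 CPM in those of Foxr2 alone. Which brain region was dissected cannot be told apart from the genotype in these neurons.

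**Figure D5:**
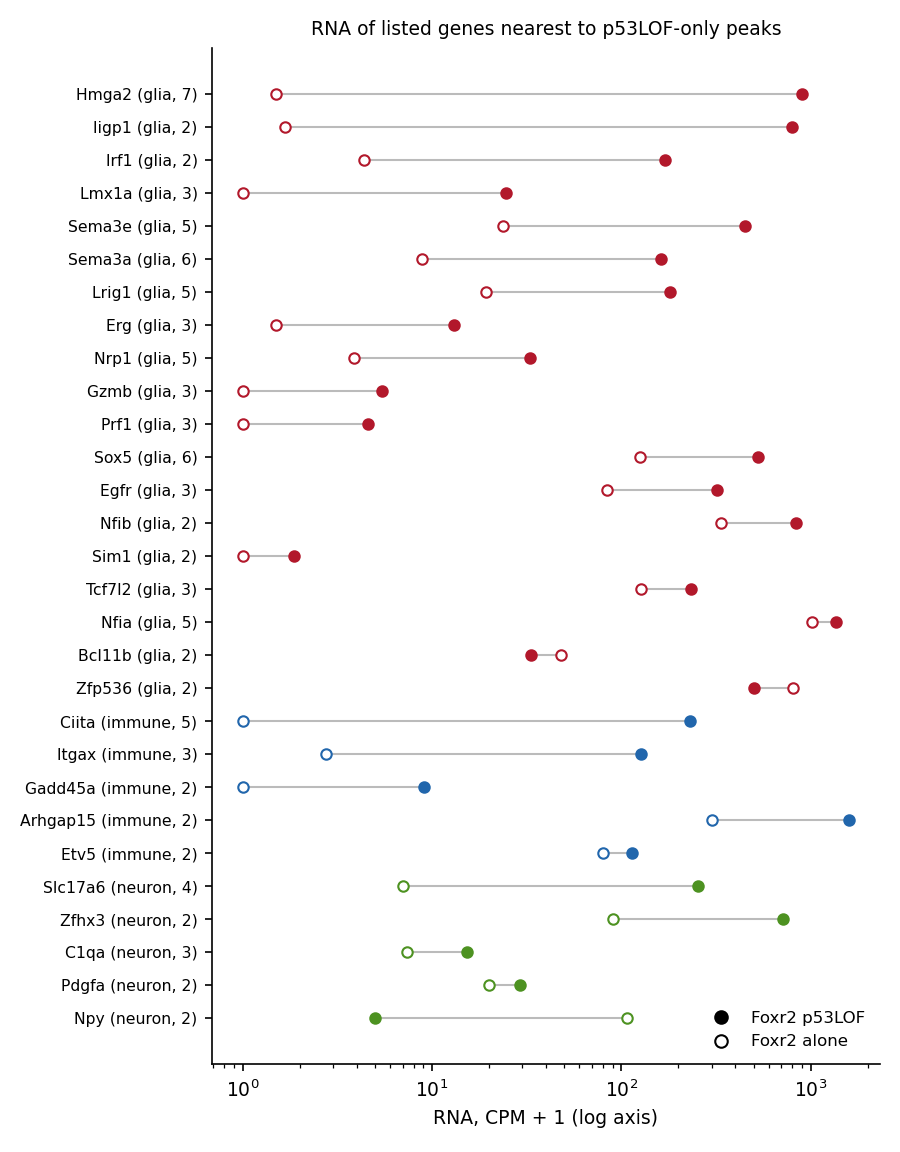
RNA, as CPM + 1 on a log axis (x axis), in Foxr2 p53LOF replicate 1 (filled) and Foxr2 alone replicate 1 (open) of the listed genes with at least 3 p53LOF-only peaks, of which tumor glia, immune nuclei or neurons led 2 or more and more than either of the other two; brackets give the nuclei compared and the number of peaks that class led. Hmga2, at 903 against 0.510 CPM, has the widest gap among the glia-like nuclei, Ciita among the immune nuclei and Slc17a6 among the neurons.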

How the data were processed

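The files of 3 10x Multiome libraries were used, 1 of Foxr2 p53LOF and 2 of Foxr2 alone, grouped by their labels, with nuclei analysed for replicate 1 of each genotype and peaks and barcodes for Foxr2 alone replicate 2. The authors aligned reads to mm10 with 5 added vector contigs and made the matrices with Cell Ranger ARC 2.0.0, calling cells and peaks per library. The deposited values are raw counts: UMIs per gene and transposition counts per peak. Feature coordinates and barcodes were also deposited. ATAC counts were even in 80.7% and 82.9% of nonzero entries, so fragments were taken as counts divided by 2. Counts of Foxr2 alone replicate 2 were not analysed here. No column of another series was found.

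Nuclei with at most 5% mitochondrial UMIs, at least 400 genes and 400 fragments, and under the study's upper limits were kept, and Scrublet doublets (353 and 540) were removed. Both libraries were clustered jointly (scanpy 1.11.5, leidenalg 0.10.2, 2000 genes, 30 components, 20 neighbours, resolution 0.5, seed 100), with marker, listed and vector genes left out. Clusters were named by markers.

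Overlap needed 1 base. Distances ran to the start of 30336 autosomal genes with a strand in GENCODE vM21, of which 26210 starts equalled the GENCODE gene start. Sequences came from RefSeq GRCm38.p6, whose chromosome lengths hold every peak. Motifs were searched as exact letters on both strands. With 1 library per genotype no test was run, and intervals cover counting error only. Classes led a peak at 2-fold with 0.5 counts added. Scripts were checked on simulated data.

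Named were the 5 peaks with the most counts in each leading class, the 10 with the most over all nuclei, the 12 genes with the most p53LOF-only peaks, 6 per leading class, and listed genes with at least 3. The peak with the most counts among those led by tumor glia is not reported here. 10 gene lists were used: growth and glial tumor, ETS, oncofetal, myeloid, lymphoid, interferon and antigen presentation, neuron subtype, forebrain interneuron, p53 target, and semaphorin and guidance genes. Members and lists were chosen with earlier results of these data known.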

Additional observations from a re-analysis of the deposited data

How the results depend on the processing

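The 4 classes kept their order by share of ATAC counts in p53LOF-only peaks (tumor glia, neurons, immune nuclei, host glia) under every setting tried for that share. In that order, the shares were 12.6%, 8.67%, 6.84% and 4.85% with each nucleus counted once per peak, 11.7%, 7.89%, 6.62% and 4.53% with minimums of 1000 genes and 1000 fragments, and 9.96%, 6.71%, 5.11% and 3.67% for peaks over 500 bp from every Foxr2 alone peak. With doublets kept they were 11.5% in tumor glia, 7.99% in neurons and 6.31% in immune nuclei, at a Leiden resolution of 1.0 11.7% in tumor glia and 6.53% in immune nuclei, and with the limits set on peak counts 11.4%, 6.17% and 4.37% in tumor glia, immune nuclei and host glia. Settings chosen after seeing the data gave 11.5%, 7.82%, 5.98% and 4.30% without the peak with the most counts, and 11.6% with tumor glia taken as nuclei with a vector count. A limit of 2 or 5 times the immune vector share gave the same classes.

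At 4-fold, 2781 of the 4361 peaks led by tumor glia were p53LOF-only (63.8%) and 1624 of the 8791 led by immune nuclei (18.5%). For neurons these were 1545 of 6030 (25.6%) and for host glia 74 of 2140 (3.46%). Immune nuclei and neurons therefore changed places by count. With counts per nucleus in place of CPM, 13201 of the 26965 peaks led by tumor glia were p53LOF-only (49.0%, against 57.4% by CPM). For host glia these were 80 of 2090 (3.83%, against 5.90%). Without 1 of the Foxr2 alone libraries, 40438 to 41935 peaks were without a counterpart. The share near gene starts was 14.8% at 5000 bp, 2.98% for symbols not of the form Gm or Rik and, added later, 9.17% with all transcripts. RNA was higher for 26.1% of genes with 3 or more p53LOF-only peaks at a minimum of 50 CPM, and the share of all genes at that minimum was not computed. With only peaks within 100000 bp of the start it was higher for 33.8%, against 18.8% of all genes tested. With the same limit it was 67.3% for peaks led by tumor glia in glia-like nuclei, against 22.5% of all genes tested. AP-1 shares with TGACTCA alone, also added later, were 41.1% in those led by tumor glia. The cause of these changes was not tested. Over all settings, 39 values moved beyond the limit set for calling them the same and 35 did not. The limit was a fixed fold for counts and the exact binomial interval of the main value for shares.

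No paired analysis was possible because counts of 1 library of each genotype were analysed here and no test was run. Depth limits the immune comparison, since Foxr2 alone replicate 1 held 568366 UMIs of immune nuclei, and weak peaks can miss the caller's limit in 1 library.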

Other observations

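The X chromosome, which the rule leaves out, held 496 peaks of Foxr2 p53LOF with no Foxr2 alone counterpart among 2115 (23.5%), and tumor glia led 191 of them, neurons 48, immune nuclei 30 and host glia 4. Tumor glia led 281 X peaks in all. Over the autosomes the p53LOF-only share ran from 21.1% of the peaks of chromosome 7 to 27.9% of those of chromosome 3. Chromosome 3 also had the highest share led by tumor glia, 37.1% of its p53LOF-only peaks, and chromosome 7 the lowest, 24.8%. The share of a class's counts in shared peaks that fell on a chromosome moved the same way: in tumor glia it was 1.07 times that of the other 3 classes on chromosome 3, the highest ratio, and 0.928 times on chromosome 7, the lowest. The part of this in the shares above was not tested.

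Among the nuclei of Foxr2 p53LOF that belonged to none of the 4 classes, a cluster of 230 nuclei led by Gzmb, Themis, Ctla4, Prf1 and Cd3g, genes of T and NK cells, had 7.38% of its ATAC counts in p53LOF-only peaks (95% exact binomial interval 7.32 to 7.43). A cluster of 75 nuclei led by Slco1a4, Cldn5, Vtn and Rgs5, genes of vessels, had 7.32% (7.21 to 7.42). Both lay above the immune nuclei and the host glia and below the neurons. Their peaks were not given a leading class, so p53LOF-only peaks open in these cells count as led by another class or by none.

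Insc, the gene of a scaffold protein of cell polarity, had the most p53LOF-only peaks that were led by tumor glia and at least 2-fold higher in the astrocyte-like cluster than in the COP-like one, 11, followed by Sall3 with 9. In the opposite direction Ets1, Tenm3 and Cd83 had 8 each. These counts take the nearest gene whose symbol is not of the form Gm or Rik.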
